A study of Mus musculus with 6 samples.

Results

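Liver tumours of Hras12V transgenic mice were compared with precancerous liver of mice of the same genotype, sex and age. The comparison used 4 of the 6 libraries of the series, chosen by their tissue labels: 1 tumour and 1 precancerous library from males of 9 months, and 1 of each from females of 15 months. All 4 came from untreated C57BL/6 mice that carry the Hras12V transgene, so the transgene is shared by both sides and the contrast is between tissue labelled tumour and tissue labelled precancerous. The other 2 libraries, normal liver of untreated wild-type C57BL/6 mice of the same sexes and ages, served only to show levels. Sex and age changed together between the cohorts and cannot be told apart. The promoter that drives the transgene, the line, and whether a library held 1 mouse or a pool are not given in the sources used here, nor whether the tumour and the precancerous library of a cohort came from the same animals. P-values therefore measure only the spread between these libraries.

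RAS proteins are small GTPases that pass growth factor signals to the MAP kinase and PI3 kinase pathways, and the Hras12V mutation keeps the protein in its active, GTP-bound state. Hepatocytes, the main cells of the liver, break down amino acids and alcohols, exchange retinoids with stellate cells, which store them, make haem and bile acids, and secrete most plasma proteins. In hepatocellular carcinoma such specialised functions are often reduced, while genes of cell shape, adhesion and growth are often raised.

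The deposited table gave a count and an FPKM value (fragments normalised to gene length and library total) for 34745 genes, of which 11435 reached FPKM 1 in 2 or more of the 6 libraries and were tested. Total counts of the 4 libraries ran from 6891837 to 18434508, and were lower in males than in females, so the male values carry more counting error. At 3 counts, the smallest level read as present, a gene stood at between 0.163 and 0.435 CPM, the count scaled to the library total. The defining hepatocyte markers Alb, Ttr and Apoa1 were high in all 4 libraries, and albumin took between 9.55% and 14% of the counts. Values of genes that lie under an exon of the other strand were higher in males in every tissue: for 341 such tested genes the median male minus female difference was 1.39, 1.43 and 1.45 on the log2(FPKM + 1) scale in normal, precancerous and tumour liver, against 0.06, 0.05 and 0.08 over all tested genes. Tumour and precancerous libraries of 1 cohort share this offset, and 13 of those 341 genes passed the test higher and 13 lower.

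Between tumour and precancerous liver 2904 of the 11435 tested genes passed the test, 25.4% of them. The test was edgeR's two-sided quasi-likelihood test with the cohort as a block, and a gene that passed it, with a p adjusted by Benjamini-Hochberg under 0.05, is said to be called. Of the called genes 1538 were higher in tumour (13.4% of tested genes) with a median log2 fold change of 1.15, and 1366 were lower (11.9%) with a median of -1.0. The median over all tested genes was 0.02. The fold change exceeded 8-fold for 180 called genes in the upward and 117 in the downward direction, and 2892 of the 2904 had the same sign of difference in both cohorts. A filter on low values lets a gene in through the tissue where it is high, so shares are also given for the 10359 genes at FPKM 1 or more in a library of each of the 2 tissues: of these 11.2% rose and 11.5% fell.

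Within a cohort there was 1 library per tissue and no test. On the log2(FPKM + 1) scale, which understates the change of low genes, the male tumour was higher by 2-fold or more for 759 genes (6.64% of tested genes) and lower by as much for 538 (4.7%). In females 679 were higher (5.94%) and 555 lower (4.85%). Both cohorts shared 496 genes at least 2-fold higher (4.34%) and 332 at least 2-fold lower (2.9%), while 7 genes (0.0612%) were higher in the male and lower in the female tumour and 1 (0.00875%) the reverse. The number of calls rested on both precancerous libraries. Without the male one, in a fit to the other 5 libraries that takes the lone sample to vary like the rest, 458 genes passed. Without the female one 506 passed, without the female tumour 1731, and without the male tumour 2521. Of the 2904 genes, 445 and 491 passed in the same direction without the male and the female precancerous library, and no called gene passed in the other direction. Leave-one-out counts of a gene list are given below as 4 numbers, without the male precancerous, the female precancerous, the male tumour and the female tumour library in this order.

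**Figure D1:**
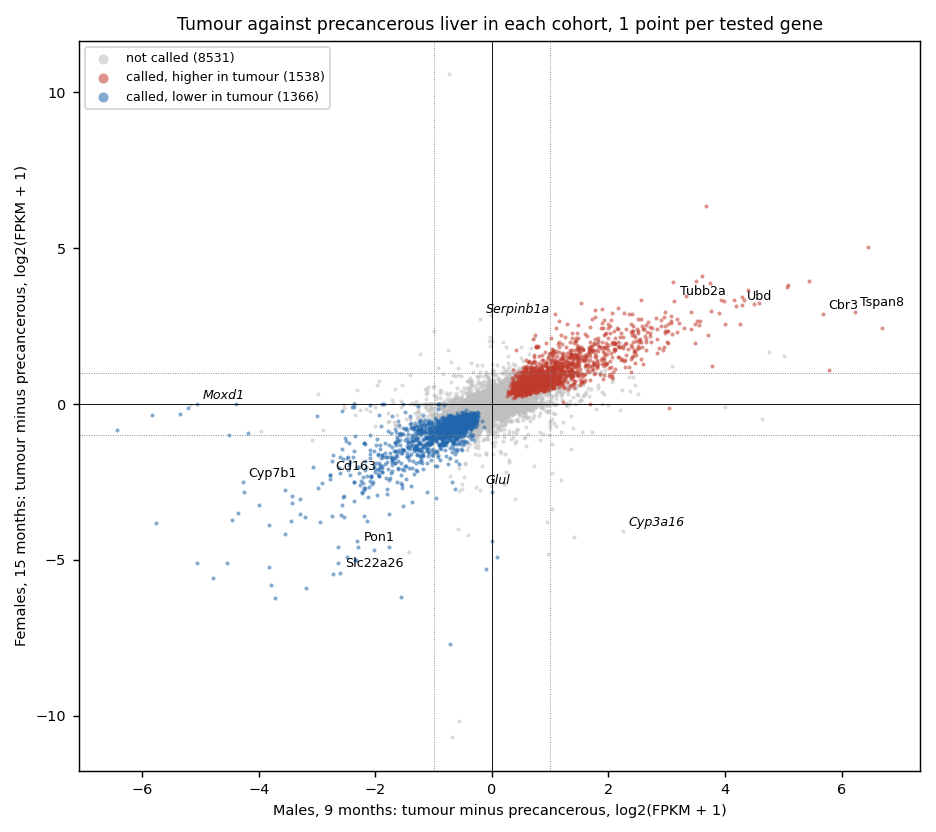
Difference between tumour and precancerous liver on the log2(FPKM + 1) scale in males of 9 months (x axis) and females of 15 months (y axis), 1 point for each of the 11435 tested genes; dotted lines mark a 2-fold difference. The 1538 genes called higher (red) and the 1366 called lower (blue) lie mainly where both cohorts differ the same way.

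The genes named next were among those that rose most in both cohorts, outside large multigene families and genes already described. Ubd, which encodes the ubiquitin-like modifier FAT10, had FPKM values of 0.623 and 0.143 in the male and female precancerous livers and of 30.7 and 9.26 in the tumours (log2 fold change 5.68, SE 0.28, edgeR adjusted p = 0.00457); it lies at chromosome 17, 37193892 to 37196095 in the GRCm38 build. Both tumours were above both precancerous libraries, and normal liver stood at 0.358 FPKM in males and 0.487 in females. Here and below, most genes were named for a large difference, so such separation largely follows from that choice and is no separate support. The share of all tested genes that separate in this way was not counted. Tubb2a, a beta tubulin at chromosome 13, 34074301 to 34078008, had FPKM values of 13.7 and 14.5 in the male and female precancerous livers and of 127 and 153 in the tumours, with a small SE of 0.14 around a log2 fold change of 3.29. Its normal levels of 38 and 17.6 FPKM lay between the precancerous and tumour levels in both cohorts.

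From here on, a range gives the precancerous and then the tumour level of a cohort. Golm1, a Golgi membrane protein with 29.3% of its exonic length under an exon of the other strand, went from 2.67 to 29.7 FPKM in males and 3.65 to 28.8 in females. Tmem54, a membrane protein, went from 0.344 to 23.5 FPKM in males and 0.882 to 15.5 in females. Cd14, a co-receptor for bacterial lipopolysaccharide, went from 2.21 to 33.2 FPKM in males and 4.27 to 40.3 in females. Slc39a4, a zinc importer of the cell surface, was already well expressed before and went from 11.7 to 93.8 FPKM in males and 32.2 to 212 in females. The tumours did not overlap the precancerous libraries for any of these 4 genes. Cbr3, a carbonyl reductase, differed much more in males (0.496 to 75.4 FPKM in males and 10.8 to 86.5 in females; log2 fold change 4.04, SE 0.79), as did the tetraspanin gene Tspan8 (1.56 to 191 FPKM in males and 15 to 123 in females; log2 fold change 4.61, SE 1.01). For both, the female precancerous library stood well above the male one, and their adjusted p lay nearer the threshold (edgeR adjusted p = 0.0303 and 0.039). Phlda3, a p53 target that restrains AKT, went from 0.652 to 11.8 FPKM in males and 1.89 to 19.2 in females, and Ocstamp, a membrane protein known from osteoclast fusion, 0.317 to 12.2 FPKM in males and 2.69 to 39.7 in females. Erich4 was listed at 0 in both normal libraries and went from 0.319 to 19.7 FPKM in males and 1.24 to 21 in females. Tmed2, a cargo receptor of the early secretory pathway, went from 0.756 to 14.1 FPKM in males and 0.144 to 16.4 in females, but its normal levels of 13.1 FPKM in males and 0.381 in females also differed widely.

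Srxn1, sulfiredoxin, which reduces over-oxidised peroxiredoxins, went from 9.03 to 77.4 FPKM in males and 20.5 to 164 in females (log2 fold change 3.02, SE 0.15, edgeR adjusted p = 0.00457). Of the 15 named genes that rose most, 9 matched a promoter in the RefSeq table of GRCm38.p6, and the letters TGANTCA, the core bound by AP-1 factors, were found in 2 of the 9, Srxn1 and Tmem54. Of the 15 that fell most 10 matched a promoter and 0 held these letters in it. These letters stand on either strand in 7.81% of all 32851 promoters listed there, counted per promoter and without leaving out a chromosome. The 250 bases before the start of the first listed Srxn1 and Tmem54 transcripts are shown because they carry the matches, in capitals, whose first base lies at -102 and -45 from the Srxn1 start and at -21 from the Tmem54 start. Both genes are on the plus strand, at chr2:152105274-152105523 and chr4:129105280-129105529. A match of letters is a description of the sequence and not a bound site, and a comparison of motif shares between rising and falling genes was void because a promoter was matched for 74.5% of tested genes, under the 80% needed.
Srxn1: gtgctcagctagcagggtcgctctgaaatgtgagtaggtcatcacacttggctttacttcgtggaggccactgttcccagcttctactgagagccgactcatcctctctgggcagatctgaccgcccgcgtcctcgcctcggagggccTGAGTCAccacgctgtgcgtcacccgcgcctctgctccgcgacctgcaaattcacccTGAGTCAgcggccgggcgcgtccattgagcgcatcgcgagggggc
Tmem54: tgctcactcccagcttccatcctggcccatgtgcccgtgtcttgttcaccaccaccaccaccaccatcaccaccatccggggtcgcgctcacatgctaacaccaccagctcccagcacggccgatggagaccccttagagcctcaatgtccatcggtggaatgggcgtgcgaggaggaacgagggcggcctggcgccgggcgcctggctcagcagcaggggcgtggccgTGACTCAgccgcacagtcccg

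**Figure D2:**
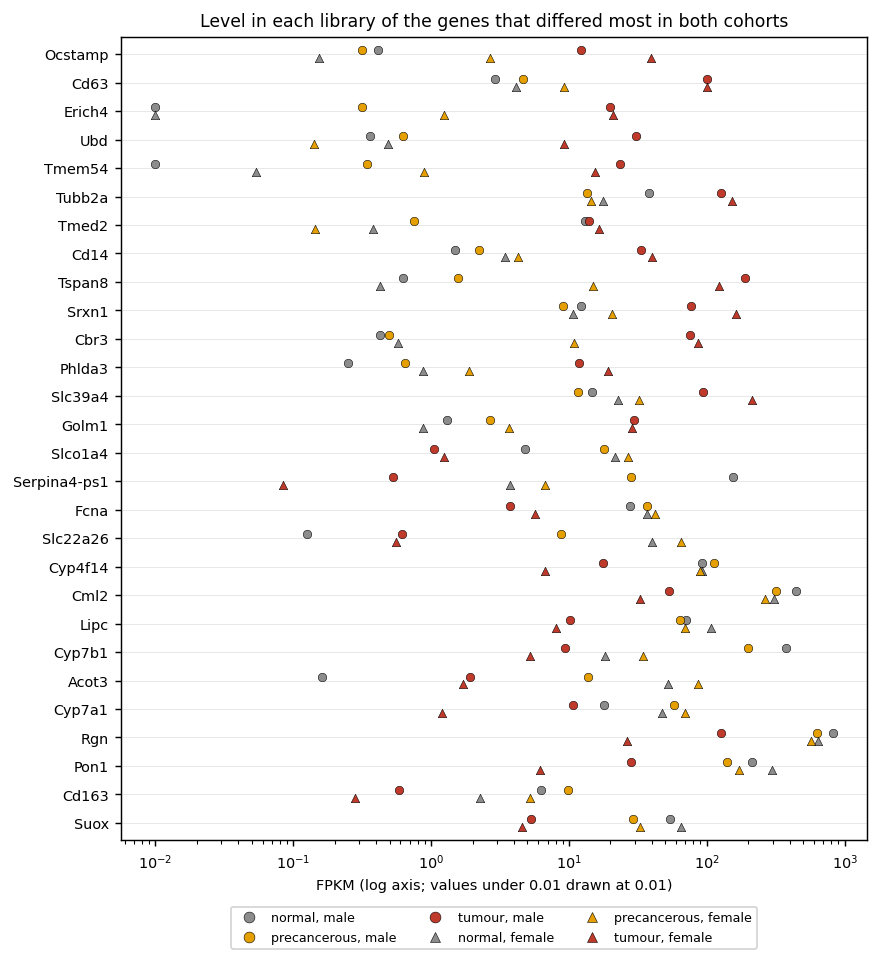
FPKM on a log axis for 14 of the 15 genes per direction with the largest difference shared by both cohorts, with 1 symbol for each of the 6 libraries (circles males, triangles females; grey normal, orange precancerous, red tumour). For each gene from Ocstamp to Golm1 both tumours lie to the right of both precancerous libraries, and for each gene from Slco1a4 to Suox both lie to the left.

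Several hepatocyte enzymes and transporters were among the genes that fell most in both cohorts. Lipc, hepatic lipase, lies at chromosome 9, 70798129 to 70934808 and had FPKM values of 63.9 and 70.0 in the male and female precancerous livers and of 10.1 and 8.11 in the tumours (log2 fold change -2.92, SE 0.16, edgeR adjusted p = 0.00457). Pon1, the paraoxonase carried on high-density lipoprotein, went from 141 to 28.1 FPKM in males and 171 to 6.18 in females. Both genes were far higher in both precancerous libraries than in either tumour. Cyp7a1, the rate-limiting enzyme of bile acid synthesis, went from 57.6 to 10.6 FPKM in males and 69.9 to 1.2 in females (SE 0.95 around a log2 fold change of -4.12, edgeR adjusted p = 0.044), with the larger fall in females. Cyp7b1, the oxysterol hydroxylase of the alternative bile acid route, had the larger fall in males (198 to 9.36 FPKM in males and 34.5 to 5.26 in females; log2 fold change -3.58, SE 0.49).

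Among transporters, Slco1a4, an importer of organic anions, went from 17.9 to 1.04 FPKM in males and 26.9 to 1.24 in females, and Slc22a26, an organic anion transporter gene, 8.84 to 0.619 FPKM in males and 65.1 to 0.562 in females. Several other enzymes fell from a high level. Rgn, regucalcin, which makes a late step of ascorbate synthesis in the mouse, went from 632 to 127 FPKM in males and 568 to 26.4 in females. Cyp4f14, a fatty acid hydroxylase, went from 112 to 17.8 FPKM in males and 89.6 to 6.76 in females, Acot3, a peroxisomal thioesterase, 13.8 to 1.93 FPKM in males and 86.7 to 1.72 in females, and Suox, sulfite oxidase, 29.2 to 5.27 FPKM in males and 32.8 to 4.57 in females. Cml2, an acetyltransferase-like gene, went from 319 to 53.7 FPKM in males and 266 to 32.7 in females, and the pseudogene Serpina4-ps1 28.1 to 0.529 FPKM in males and 6.71 to 0.0843 in females. In every one of these genes both tumours were below both precancerous libraries. In males, precancerous liver stood well above normal liver for Slco1a4, Slc22a26 and Acot3. Their normal levels were 4.81, 0.126 and 0.161 FPKM in males and 21.7, 40.4 and 52.1 in females. The male tumour was above normal male liver for Slc22a26 and Acot3, and below it for Slco1a4. For Rgn, Suox, Cml2 and Serpina4-ps1 male precancerous liver was below normal male liver. Fcna, ficolin A, a lectin of the complement system made by macrophages, went from 36.6 to 3.75 FPKM in males and 42.1 to 5.7 in females, and Cd163, the haemoglobin scavenger receptor of macrophages, 9.89 to 0.587 FPKM in males and 5.24 to 0.281 in females (log2 fold change -4.17, SE 0.14, edgeR adjusted p = 0.00356).

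To see which processes these genes belong to, 57 functional lists were counted. Counts of risers and fallers among tested members stand against 13.4% and 11.9% of all tested genes. Counts among members at FPKM 1 or more in each tissue stand against 11.2% and 11.5%. Among members at FPKM 1 or more in each tissue, the share that rose was over 2 times the 11.2% background in 15 lists, and the share that fell was over 2 times the 11.5% background in 17. Both held for 2 lists, eicosanoid metabolism and angiogenic factors. In 9 lists both shares were under background: lysosome, cytosolic chaperones, ribosome biogenesis, mitochondrial ribosome, splicing, translation factors, regulated secretion, chromatin and long noncoding RNAs.

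**Figure D3:**
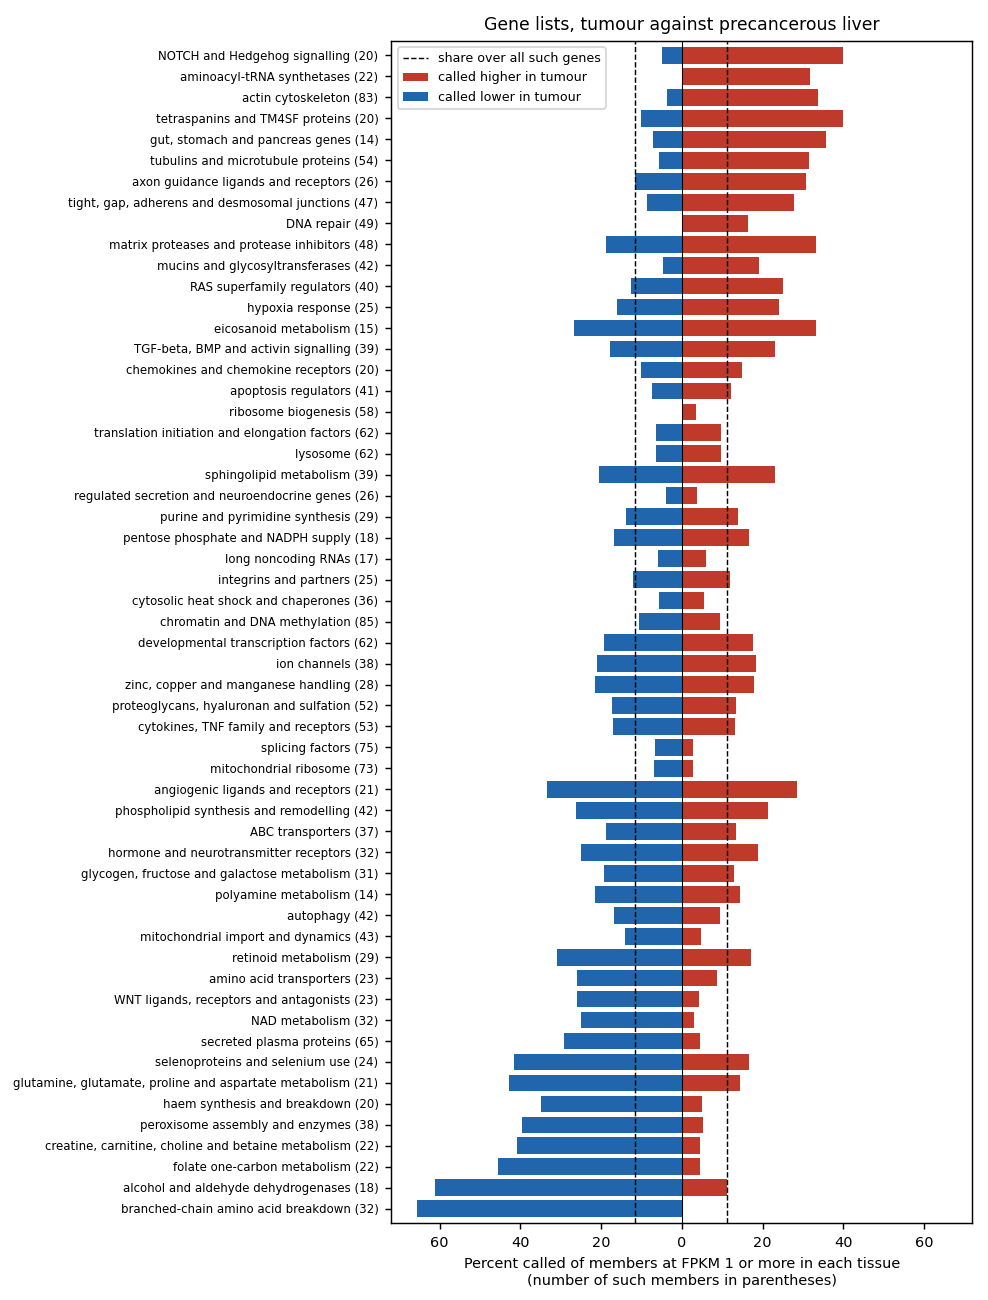
For 56 of the 57 lists, percent of members called higher (red, right) and lower (blue, left) in tumour, over members at FPKM 1 or more in each of the 2 tissues, with their number in parentheses. Dashed lines mark the 11.2% and 11.5% over all such genes; NOTCH and Hedgehog genes and tetraspanins reach farthest to the right, and branched-chain amino acid breakdown and alcohol and aldehyde dehydrogenases farthest to the left.

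Breakdown of the branched-chain amino acids leucine, isoleucine and valine had the largest share of fallers among the 57 lists. Of 32 tested genes 21 fell and 0 rose, the list's median log2 fold change was -0.76, and all 32 were at FPKM 1 or more in both tissues. Ppm1k, the phosphatase that switches on the branched-chain ketoacid dehydrogenase, fell most, 13.6 to 2.65 FPKM in males and 8.22 to 1.49 in females (log2 fold change -2.44, SE 0.12, edgeR adjusted p = 0.00457). Dehydrogenases of the later steps followed: Hibadh of valine breakdown went from 23.2 to 9.43 FPKM in males and 20.6 to 5.42 in females, Acadsb of isoleucine breakdown 19.3 to 6.45 FPKM in males and 11.9 to 4.74 in females, and Aldh6a1, methylmalonate semialdehyde dehydrogenase, 140.1 to 64.3 FPKM in males and 132 to 48.5 in females. For these 4 genes the tumours did not overlap the precancerous libraries, whose levels were below those of normal liver in each cohort. On the log2(FPKM + 1) scale 5 of the 32 genes were at least 2-fold lower in both cohorts. Bcat2, the aminotransferase of the first step, missed the threshold (log2 fold change -0.54, edgeR adjusted p = 0.0527), as did Bckdk, the kinase that opposes Ppm1k (0.42, edgeR adjusted p = 0.12); both were picked after their values were seen. For branched-chain breakdown leave-one-out counts were 1, 2, 22 and 12 lower. The share of counts on mitochondrial transcripts was lower in tumour as well, 3.10% to 1.91% in males and 5.92% to 3.79% in females, whereas of 73 tested mitochondrial ribosome genes 2 rose and 5 fell; the part of either in the result was not tested.

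**Figure D4:**
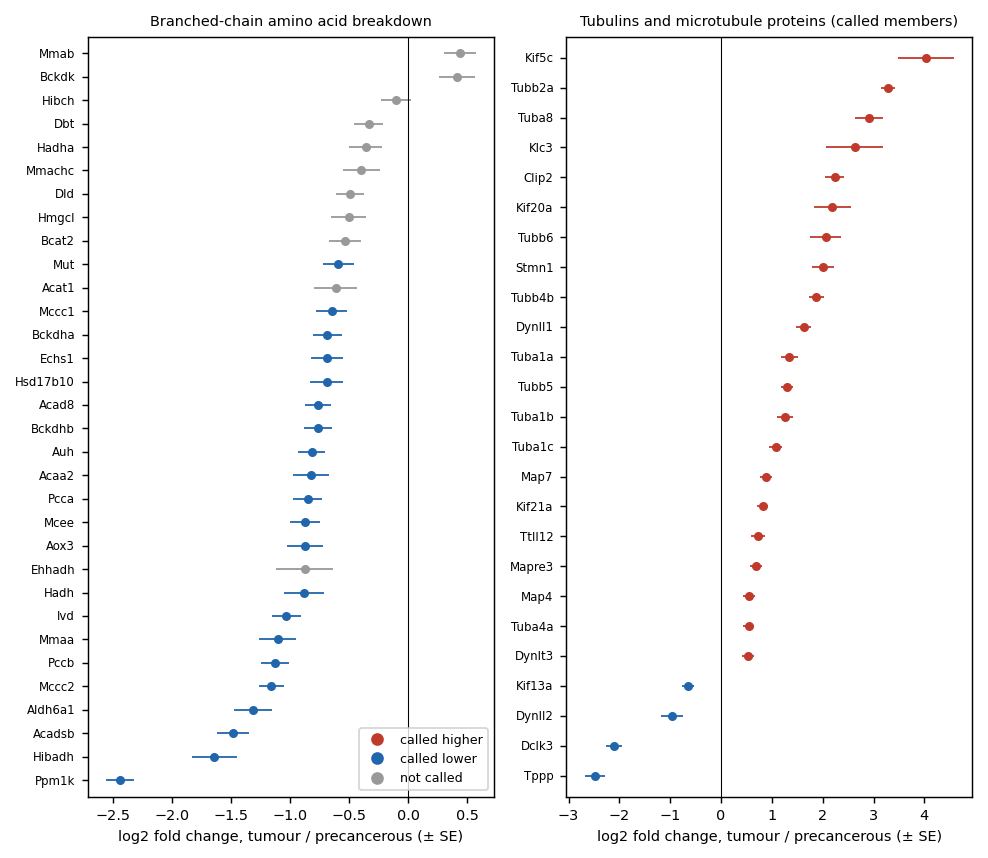
Log2 fold change of tumour over precancerous liver with a standard error computed from edgeR's F statistic. The left panel holds all 32 tested genes of branched-chain amino acid breakdown. The right panel holds the 25 called genes among 59 tested tubulins and microtubule proteins. Red marks genes called higher, blue called lower and grey not called. Ppm1k lies lowest on the left, and Kif5c and Tubb2a highest on the right.

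Enzymes of one-carbon and choline-derived metabolism fell. In the folate list 10 of 22 tested genes fell and 1 rose, and in the list of creatine, carnitine, choline and betaine metabolism 9 of 23 fell and 2 rose. Bhmt, which remakes methionine from homocysteine with betaine, went from 108 to 22.5 FPKM in males and 132 to 22.2 in females. Dmgdh and Sardh, which take the next methyl groups off dimethylglycine and sarcosine, went from 112 to 23.2 FPKM in males and 130.3 to 25.2 in females and 94.6 to 41.4 FPKM in males and 98 to 32.8 in females. Pipox, a peroxisomal sarcosine oxidase, went from 82.1 to 29.3 FPKM in males and 96.6 to 32 in females. All 4 had higher levels in each precancerous than in each tumour library. The 1 riser of the folate list was Mthfd1l, the mitochondrial formyltetrahydrofolate synthetase, which went from 1.08 to 6.61 FPKM in males and 1.25 to 4.97 in females (log2 fold change 2.23, SE 0.19, edgeR adjusted p = 0.00597). Its normal levels were 0.0887 and 0.301 FPKM. For one-carbon genes leave-one-out counts were 1, 3, 10 and 3 lower for folate and 2, 2, 9 and 5 lower for the choline list.

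Genes that handle glutamate and proline split. Of 24 tested genes 10 fell and 5 rose, and of the 21 at FPKM 1 or more in both tissues 9 fell and 3 rose. Oat, ornithine aminotransferase, went from 392 to 84.7 FPKM in males and 342 to 27.3 in females (log2 fold change -2.96, SE 0.39), and Abat, which breaks down GABA, 26.1 to 9.97 FPKM in males and 34.9 to 12.7 in females. Aldh4a1, the second enzyme of proline breakdown, went from 51.3 to 26.4 FPKM in males and 68.5 to 28.9 in females. In contrast Gclc, the catalytic subunit of the first enzyme of glutathione synthesis, went from 62.1 to 331 FPKM in males and 76.7 to 358 in females (log2 fold change 2.29, SE 0.16, edgeR adjusted p = 0.00487), Glud1, glutamate dehydrogenase, 179.9 to 422 FPKM in males and 242 to 400.4 in females, and Aldh18a1, which starts proline synthesis from glutamate, 0.264 to 1.58 FPKM in males and 0.737 to 2.27 in females. No precancerous library reached a tumour level for Gclc, Glud1 or Aldh18a1. For glutamate and proline genes leave-one-out counts were 0, 1, 9 and 7 lower and 0, 0, 4 and 4 higher. Amino acid transporters counted 6 fallers and 2 risers among 24 tested, with Slc16a10, which carries aromatic amino acids, at 25.7 to 8.15 FPKM in males and 23.8 to 2.88 in females and Slc38a4, a system A transporter, at 209.9 to 82.6 FPKM in males and 167 to 66.7 in females, both fallers. For amino acid transporters leave-one-out counts were 0, 0, 4 and 7 lower.

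Alcohol and aldehyde dehydrogenases counted 11 fallers and 4 risers among 20 tested, with a median log2 fold change of -0.78. Adh4 went from 48.6 to 11.3 FPKM in males and 35.7 to 7.6 in females and Aldh1a1, the main cytosolic retinaldehyde dehydrogenase of liver, 459 to 198 FPKM in males and 259.9 to 73.3 in females. Both genes also belong to retinoid metabolism, where 13 of 35 tested genes fell and 7 rose. Rdh16, a retinol dehydrogenase, went from 9.51 to 1.84 FPKM in males and 10.3 to 1.49 in females (log2 fold change -2.62, SE 0.15), and Retsat, retinol saturase, 30.1 to 8.85 FPKM in males and 39.2 to 16.2 in females. The risers were a different set: Bco1, which cleaves beta-carotene, went from 2.36 to 18.9 FPKM in males and 4.25 to 13.4 in females, and Rdh11, a retinaldehyde reductase, 4.31 to 26.6 FPKM in males and 9.32 to 19.8 in females. Male and female tumours lay on the same side of the precancerous libraries for all of these. For Rdh11 normal liver, at 17.7 FPKM in males and 18.2 in females, also stood above precancerous liver. Restricted to the 29 retinoid genes at FPKM 1 or more in both tissues, 9 fell and 5 rose. For these 2 lists leave-one-out counts were 2, 2, 9 and 9 lower for the dehydrogenases, 4, 5, 12 and 9 lower for retinoids and 1, 2, 7 and 6 higher for retinoids.

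Haem synthesis and breakdown genes counted 7 fallers and 1 riser among 20 tested. Alas1, the rate-limiting enzyme, went from 72.4 to 28.6 FPKM in males and 117 to 30.6 in females, Cpox 38.7 to 18.7 FPKM in males and 45.1 to 13.9 in females and Alad 33.1 to 20.6 FPKM in males and 56.3 to 23.2 in females. Slc48a1, a haem transporter of endosomes and lysosomes, was the gene that rose, 15.7 to 80.7 FPKM in males and 24.2 to 94.4 in females (log2 fold change 2.13, SE 0.15, edgeR adjusted p = 0.00493). Hmox1, the haem oxygenase that breaks haem down, was also lower, 13.1 to 5.75 FPKM in males and 20.1 to 12.7 in females. Its normal levels of 6.5 FPKM in males and 13.9 in females lay near the tumour levels. Peroxisomal genes counted 15 fallers and 2 risers among 38 tested. Hacl1 and Phyh, which follow each other in the alpha-oxidation of phytanic acid, went from 28.3 to 5.53 FPKM in males and 32.7 to 7.25 in females and 599 to 265 FPKM in males and 478 to 249.5 in females, and Nudt7, a coenzyme A hydrolase, 44.7 to 9.77 FPKM in males and 12.6 to 3.88 in females. Acox2, the oxidase for bile acid intermediates and branched chains, rose, 20.7 to 36.3 FPKM in males and 30.4 to 62 in females. Its normal levels were 41.9 FPKM in males and 43.3 in females. The male tumour thus stayed below normal male liver, and the female tumour was above normal female liver. NAD metabolism counted 8 fallers and 1 riser among 32 tested; Afmid and Haao of the route from tryptophan to NAD went from 18.8 to 5.37 FPKM in males and 25.9 to 7.63 in females and 293 to 96.3 FPKM in males and 267 to 95.5 in females, and Sirt3, the mitochondrial deacetylase, 30.5 to 11.6 FPKM in males and 31.6 to 11.4 in females. For these 3 lists leave-one-out counts were 0, 1, 6 and 6 lower for haem, 1, 1, 12 and 8 lower for peroxisomes and 1, 4, 9 and 7 lower for NAD.

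Selenoproteins, which carry selenocysteine and are mostly redox enzymes, moved both ways. Of 26 tested genes 10 fell and 5 rose. Gpx1, the main cytosolic glutathione peroxidase, went from 165 to 44 FPKM in males and 90.7 to 28.7 in females (log2 fold change -1.81, SE 0.16, edgeR adjusted p = 0.00686), and Sepw1 and Msrb1 went from 67.6 to 22.8 FPKM in males and 91.6 to 32.4 in females and 129 to 56.7 FPKM in males and 91.6 to 40.3 in females. The related peroxidase Gpx4, which protects membrane lipids, rose, 17.1 to 35 FPKM in males and 15.4 to 25.2 in females, and so did Txnrd1, thioredoxin reductase, 46.1 to 77.3 FPKM in males and 40.7 to 75.2 in females. Gpx2, the peroxidase best known from gut epithelium, was at most 0.125 FPKM in precancerous liver and at 2.42 and 6.76 FPKM in the tumours. The Gpx1 level was thus below precancerous and normal liver in both tumours, while the Gpx2 level was above both. For selenoproteins leave-one-out counts were 1, 2, 7 and 5 lower and 0, 1, 5 and 2 higher. Eicosanoid genes counted 7 risers and 4 fallers among 17 tested. Abcc4, which exports prostaglandins, went from 0.988 to 15.1 FPKM in males and 6.51 to 28.3 in females, and Ptgr1, a prostaglandin reductase, 1.9 to 9.66 FPKM in males and 1.3 to 12.8 in females, while Hpgd, the enzyme that inactivates prostaglandins, went from 63 to 18.1 FPKM in males and 69.6 to 12.5 in females and the soluble epoxide hydrolase Ephx2 217 to 92 FPKM in males and 195 to 68.2 in females. For eicosanoid genes leave-one-out counts were 2, 4, 7 and 6 higher and 1, 0, 3 and 3 lower.

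Sugar routes beside glycolysis showed rises in single enzymes. G6pdx and Pgd, the NADPH-producing enzymes of the pentose phosphate pathway, went from 3.46 to 16.1 FPKM in males and 3.6 to 21 in females and 5.85 to 22.1 FPKM in males and 7.89 to 33 in females (log2 fold changes 2.37 and 1.96, SE 0.15 and 0.13). The list as a whole had 3 risers and 3 fallers among 18, and the remaining 12 did not pass. Pygb, the brain form of glycogen phosphorylase, went from 1.29 to 10.5 FPKM in males and 2.48 to 10.7 in females. Among single enzymes that make sugar donors for glycans, Pgm3 went from 2.77 to 11 FPKM in males and 2.46 to 9.51 in females, Gfpt1, which opens the hexosamine route, 4.18 to 9.45 FPKM in males and 3.04 to 7.55 in females, and Ugdh, the source of UDP-glucuronate, 11.7 to 44.7 FPKM in males and 11 to 41.9 in females. Of the exonic length of Pgm3 28.3% lies under an exon of the other strand. In each of these 3 genes both tumours were above both precancerous libraries, while Gne, which makes a sialic acid precursor, fell by 0.70 on the log2 scale (edgeR adjusted p = 0.0223). Glycosyltransferase and mucin genes counted 10 risers and 2 fallers among 47 tested. Of the 42 at FPKM 1 or more in both tissues 8 rose (19%, against 11.2%) and 2 fell (4.76%, against 11.5%). The list was led by B4galt6 (1.02 to 14.9 FPKM in males and 1.65 to 12.4 in females) and Galnt6 (0.515 to 6.99 FPKM in males and 1.17 to 6.66 in females). For sugar routes leave-one-out counts were 2, 2, 4 and 2 higher for the pentose phosphate list and 2, 2, 8 and 7 higher for glycosyltransferases and mucins.

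Phospholipid genes moved in equal numbers, 11 up and 11 down of 45. Of the 42 at FPKM 1 or more in both tissues 9 rose (21.4%, against 11.2% of all such genes) and 11 fell (26.2%, against 11.5%). Chka, choline kinase alpha, the first step from choline to phosphatidylcholine, went from 1.7 to 8.29 FPKM in males and 1.09 to 5.93 in females (log2 fold change 2.34, SE 0.13, edgeR adjusted p = 0.00457). Pemt, which makes phosphatidylcholine from phosphatidylethanolamine in liver, went from 67 to 20.4 FPKM in males and 65.1 to 26.7 in females (log2 fold change -1.53, SE 0.17, edgeR adjusted p = 0.00986). The 2 genes thus moved in opposite directions in both cohorts. Gpam, which starts glycerolipid synthesis, went from 73.1 to 164 FPKM in males and 50.1 to 117 in females. Sphingolipid genes, all 39 of them at FPKM 1 or more in both tissues, counted 9 risers (23.1%, against 11.2%) and 8 fallers (20.5%, against 11.5%). The sphingosine phosphate receptor S1pr3 went from 0.259 to 5.86 FPKM in males and 1.1 to 5.7 in females. S1pr1, another such receptor, went from 17.3 to 8.09 FPKM in males and 17.5 to 7.8 in females. For metal handling 6 of 31 genes rose and 6 fell. Of the 28 at FPKM 1 or more in both tissues 5 rose (17.9%, against 11.2%) and 6 fell (21.4%, against 11.5%). Besides Slc39a4 the zinc exporter Slc30a4 went from 2.4 to 6.83 FPKM in males and 1.68 to 4.49 in females. The copper chaperone Ccs went from 104 to 50.6 FPKM in males and 100.3 to 44.5 in females. Its client Sod1 went from 677 to 415 FPKM in males and 573 to 286 in females. For phospholipid genes leave-one-out counts were 0, 1, 12 and 8 higher and 2, 2, 10 and 10 lower. For sphingolipids they were 4, 3, 6 and 9 higher and 0, 0, 8 and 3 lower, and for metals 2, 2, 5 and 4 higher and 0, 0, 5 and 4 lower.

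Many cytoskeleton genes rose. Of 91 tested actin cytoskeleton genes 35 rose and 3 fell, with a median log2 fold change of 0.43, and of the 83 at FPKM 1 or more in both tissues 28 rose (33.7%, against 11.2% of all such genes). Vil1 and Pls1, bundlers of the actin core of intestinal microvilli, went from 0.212 to 5.45 FPKM in males and 0.357 to 9.16 in females and 0.317 to 6.27 FPKM in males and 0.79 to 4.37 in females (log2 fold changes 4.65 and 3.06, SE 0.18 and 0.41). Both were near 0 in normal liver, at most 0.0824 FPKM. Tagln2, an actin-binding protein, went from 6.24 to 27.9 FPKM in males and 13.2 to 46.4 in females. The cytoplasmic actins themselves rose less, Actb by 0.68 and Actg1 by 0.59 on the log2 scale; these 2 were chosen after their values were seen. Markers of stellate cells and fibroblasts, which are rich in actin, had summed FPKM of 124.7 and 126.6 in male precancerous and tumour liver and 230.5 and 187 in females, and 8 of 18 tested rose and 6 fell; their part in the actin result was not tested. For actin genes leave-one-out counts were 8, 10, 24 and 23 higher.

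Microtubule genes showed the same direction: 21 of 59 tested rose and 4 fell, with a median of 0.33, and 17 of the 54 at FPKM 1 or more in both tissues rose. Beside Tubb2a, the tubulin gene Tubb4b went from 22.5 to 77.7 FPKM in males and 24.5 to 99.2 in females and Tubb6 5.86 to 16.9 FPKM in males and 3.52 to 20.9 in females. Kif5c, a kinesin heavy chain best known from neurons, went from 0.635 to 25.2 FPKM in males and 1.81 to 15.8 in females (log2 fold change 4.03, SE 0.55, edgeR adjusted p = 0.0141), and stood at no more than 0.0354 FPKM in normal liver. Tppp, which stabilises microtubules, went the other way, 6.3 to 0.932 FPKM in males and 4.05 to 0.861 in females. Tumour and precancerous libraries did not overlap for these 4 genes. For microtubule genes leave-one-out counts were 3, 3, 20 and 10 higher.

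Regulators of the RAS superfamily counted 12 risers and 7 fallers among 46 tested. Of the 40 at FPKM 1 or more in both tissues 10 rose (25%, against 11.2% of all such genes) and 5 fell (12.5%, near the 11.5% background). Rgs2, which dampens G protein signals, went from 1.98 to 20.2 FPKM in males and 2.11 to 15.4 in females, Rasal1, a RAS GTPase-activating protein, 0.0931 to 2.47 FPKM in males and 0.369 to 3.34 in females, and Rap1gap 0.536 to 4.02 FPKM in males and 1.47 to 4.75 in females. Each of the 3 stood higher in both tumours than in any of the other 4 libraries. For RAS regulators leave-one-out counts were 3, 3, 10 and 10 higher.

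Tetraspanin and junction genes rose as well. Tetraspanins and TM4SF proteins counted 10 risers and 2 fallers among 22 tested, with a median of 0.75. Cd63, a tetraspanin of late endosomes and exosomes, went from 4.64 to 99.9 FPKM in males and 9.15 to 101 in females (log2 fold change 3.84, SE 0.25, edgeR adjusted p = 0.00477), and Cd9 10.8 to 47.5 FPKM in males and 14 to 84.8 in females. The lysosome list, which also holds Cd63, had 7 risers and 4 fallers among 64. Junction genes counted 15 risers and 4 fallers among 49 tested: the epithelial cadherin Cdh1 went from 13.9 to 32.9 FPKM in males and 6.85 to 35.1 in females and claudin 1, Cldn1, 18.5 to 48.8 FPKM in males and 14.9 to 46.9 in females. Integrin genes counted 7 risers and 3 fallers among 29 tested, with Itga3 at 1.27 to 8.85 FPKM in males and 2.59 to 14.6 in females, Itga2 at 0.138 to 3.17 FPKM in males and 0.205 to 3.19 in females and Itga6 at 0.212 to 3.15 FPKM in males and 0.718 to 3.91 in females. Of the 7 integrin genes that rose 4 were under FPKM 1 in both precancerous libraries, and of the 25 at FPKM 1 or more in both tissues 3 rose and 3 fell, 12% each, near the background of 11.2% and 11.5%. For surface proteins leave-one-out counts were 3, 3, 8 and 7 higher for tetraspanins, 2, 1, 14 and 9 higher for junctions and 3, 3, 6 and 7 higher for integrins.

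Genes usually found in gut, stomach or pancreas included large contrasts. Of 82 listed genes 22 were tested, and 13 of these rose and 1 fell, but 8 of the 13 were under FPKM 1 in both precancerous libraries and reached the filter only through other libraries. Of the 14 genes at 1 or more in both tissues 5 rose and 1 fell. Spink1, a trypsin inhibitor of the pancreas, differed between the tumours: it went from 0.344 to 138 FPKM in males and 0.787 to 8.61 in females and was listed at 0 in both normal libraries. Cdh17, a cadherin of intestinal epithelium, went from 0.242 to 14.1 FPKM in males and 0.374 to 22.5 in females. Pigr, which carries antibodies across epithelia, was the faller, 352 to 64.3 FPKM in males and 374 to 103 in females. For gut-type genes leave-one-out counts were 3, 5, 12 and 12 higher.

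Extracellular proteases and their inhibitors counted 24 risers and 13 fallers among 63 tested. Plat, the tissue plasminogen activator, went from 0.172 to 6.29 FPKM in males and 0.131 to 3.86 in females. Ace, the angiotensin-converting enzyme, went from 0.3 to 5.42 FPKM in males and 1.09 to 7.15 in females. Falling members included Dpp4, the surface peptidase that cuts incretins, 26 to 6.17 FPKM in males and 20.4 to 4.24 in females, Wfdc21 795 to 128 FPKM in males and 153 to 35.9 in females, and Klkb1, plasma prekallikrein, 72.7 to 27.8 FPKM in males and 56.7 to 25.2 in females. Among the 48 at FPKM 1 or more in both tissues 16 rose and 9 fell. For the protease list leave-one-out counts were 10, 8, 22 and 19 higher and 3, 5, 11 and 7 lower.

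Signalling ligands and receptors changed in mixed directions. In the list of TGF-beta, BMP and activin signalling 13 of 49 tested genes rose and 9 fell. Of the 13 risers 4 were under FPKM 1 in both precancerous libraries. Of the 39 at FPKM 1 or more in both tissues 9 rose (23.1%, against 11.2% of all such genes) and 7 fell (17.9%, against 11.5%). Fst, follistatin, which binds and blocks activins, went from 4.1 to 29 FPKM in males and 2.73 to 36.6 in females (log2 fold change 3.29, SE 0.28), and Inhbb, an activin subunit, 1.47 to 9.34 FPKM in males and 1.72 to 19.6 in females. Inhbc and Inhbe, the activin subunits of hepatocytes, went from 23.3 to 10.7 FPKM in males and 24.9 to 9.85 in females and 17.5 to 9.18 FPKM in males and 40.8 to 18.3 in females. Tgfbr2, the type II TGF-beta receptor, went from 13.1 to 50.5 FPKM in males and 11.7 to 68.1 in females, whereas the receptor-activated Smad9 went from 1.32 to 0.101 FPKM in males and 1.29 to 0.111 in females. The activin subunits thus split by gene. Within each cohort both hepatocyte subunits were lower in tumour, but for Inhbe the female tumour was above the male precancerous library. For TGF-beta genes leave-one-out counts were 5, 4, 12 and 10 higher and 3, 2, 10 and 7 lower.

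NOTCH and Hedgehog genes counted 10 risers and 2 fallers among 24 tested. Of the 20 at FPKM 1 or more in both tissues 8 rose (40%, against 11.2% of all such genes) and 1 fell (5%, against 11.5%). Hes1, a target of NOTCH, went from 2.74 to 8.66 FPKM in males and 4.58 to 12.8 in females, the receptor Notch3 0.198 to 1.37 FPKM in males and 0.446 to 1.44 in females, and Disp1, which releases Hedgehog ligands, 0.259 to 2.3 FPKM in males and 0.94 to 3.89 in females. Gas1, a Hedgehog co-receptor, fell, 5.05 to 0.276 FPKM in males and 5.25 to 0.128 in females (log2 fold change -4.87, SE 0.33, edgeR adjusted p = 0.00477). WNT ligands, receptors and antagonists counted 9 fallers and 2 risers among 30 tested. Of the 23 at FPKM 1 or more in both tissues 6 fell (26.1%, against 11.5%) and 1 rose (4.35%, against 11.2%). Wnt2, a ligand made by liver endothelium, went from 1.67 to 0.302 FPKM in males and 1.59 to 0.144 in females, the receptor gene Fzd8 3.17 to 1.59 FPKM in males and 5.07 to 2.12 in females, and Dact2, a regulator of the pathway, 3 to 0.824 FPKM in males and 4.4 to 1.53 in females. Notum, a secreted WNT antagonist, went from 4.66 to 1.95 FPKM in males and 7.97 to 1.28 in females, though 38.1% of its exonic length lies under the other strand. The list holds both activators and inhibitors, and members of both kinds fell. For both pathways leave-one-out counts were 1, 1, 6 and 3 higher for NOTCH and Hedgehog and 0, 0, 9 and 3 lower for WNT. Axon guidance genes counted 8 risers and 4 fallers among 28 tested. Of the 26 at FPKM 1 or more in both tissues 8 rose (30.8%, against 11.2%) and 3 fell (11.5%, equal to the background). The netrin receptor Unc5b was higher, at 1.59 to 11.6 FPKM in males and 4.49 to 11.5 in females. The semaphorin receptor Plxnc1 was lower, at 6.51 to 2.07 FPKM in males and 5.31 to 1.55 in females. For axon guidance leave-one-out counts were 1, 1, 7 and 5 higher.

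Receptors for hormones and transmitters counted 12 risers and 10 fallers among 41 tested. Of the 12 risers 6 were under FPKM 1 in both precancerous libraries. Of the 32 genes at FPKM 1 or more in both tissues 6 rose (18.8%, against 11.2% of all such genes) and 8 fell (25%, against 11.5%). Gprc5b, an orphan receptor, went from 0.0962 to 11.5 FPKM in males and 1.31 to 13.6 in females, and F2rl1, the protease-activated receptor 2, 0.105 to 5.49 FPKM in males and 0.507 to 4.94 in females, while Vipr1, the receptor for vasoactive intestinal peptide, went from 4.27 to 0.95 FPKM in males and 6.26 to 1.74 in females. Ion channels rose in 18 of 52 tested cases of 293 listed, and fell in 10. Tmc5 went from 0.205 to 7.04 FPKM in males and 0.153 to 5.25 in females (log2 fold change 5.07, SE 0.18) and the hemichannel gene Panx1 0.148 to 2.95 FPKM in males and 0.305 to 2.83 in females. The fallers had been expressed in normal liver: the potassium channel Kcnk5 went from 10.7 to 2.55 FPKM in males and 13.7 to 3.35 in females, the chloride channel Clcn2 5.15 to 1.3 FPKM in males and 6.41 to 1.14 in females, the sodium channel subunit Scnn1a 2 to 0.282 FPKM in males and 3.02 to 0.274 in females, and the glycerol channel Aqp9 38.7 to 13.2 FPKM in males and 43.3 to 10.2 in females. The risers were mostly low before, and 11 of the 18 were under FPKM 1 in both precancerous libraries. Of the 38 channels at FPKM 1 or more in both tissues 7 rose (18.4%) and 8 fell (21.1%), against 11.2% and 11.5%. Among these 38 the risers did not outnumber the fallers. For hormone receptors leave-one-out counts were 2, 2, 12 and 8 higher and 1, 1, 11 and 7 lower. For channels they were 6, 7, 19 and 14 higher and 4, 5, 9 and 7 lower.

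Angiogenic factors counted 9 risers and 7 fallers among 26 tested. Of the 21 at FPKM 1 or more in both tissues 6 rose (28.6%, against 11.2% of all such genes) and 7 fell (33.3%, against 11.5%). Esm1, an endothelial proteoglycan, went from 2.56 to 29 FPKM in males and 2.22 to 18.6 in females (log2 fold change 3.23, SE 0.15, edgeR adjusted p = 0.00457), and Thbs1, thrombospondin 1, an inhibitor of vessel growth, 0.245 to 4.96 FPKM in males and 0.929 to 6.02 in females. Ang, angiogenin, went from 176 to 31.2 FPKM in males and 230.1 to 58.4 in females, and the chemokine Cxcl12 28.5 to 7.37 FPKM in males and 21.9 to 6.05 in females. Endothelial markers went in the other direction from Esm1, with 6 of 19 tested lower and 2 higher and summed FPKM of 138.7 and 109.5 in male precancerous and tumour liver and 181 and 133.3 in females; their part was not tested. Hypoxia response genes counted 8 risers and 4 fallers among 28 tested. Of the 25 at FPKM 1 or more in both tissues 6 rose (24%, against 11.2%) and 4 fell (16%, against 11.5%). Stc1, stanniocalcin 1, led with 0.233 to 8.18 FPKM in males and 1.1 to 11 in females. Hilpda, a lipid droplet protein, went from 0.796 to 3.98 FPKM in males and 0.648 to 4.46 in females. For vessel and hypoxia genes leave-one-out counts were 3, 2, 8 and 8 higher for angiogenic factors, 1, 2, 9 and 3 lower for them and 1, 1, 9 and 2 higher for hypoxia.

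Cytokine and TNF family genes counted 16 risers and 11 fallers among 67 tested. Tnfrsf12a, the TWEAK receptor, went from 6.33 to 42.8 FPKM in males and 12.6 to 76.8 in females (log2 fold change 2.64, SE 0.12, edgeR adjusted p = 0.00457). Tnfrsf10b, the death receptor for TRAIL, went from 0.137 to 5.58 FPKM in males and 0.545 to 5.18 in females, and Il1rn, the interleukin 1 receptor antagonist, 0.591 to 8.99 FPKM in males and 2.17 to 9.56 in females. Among fallers, the receptor genes Lifr and Il6ra went from 35.3 to 18.6 FPKM in males and 42.6 to 11.5 in females and 9.1 to 3.37 FPKM in males and 7.81 to 3.4 in females. Of the 53 members at FPKM 1 or more in both tissues 7 rose and 9 fell, 13.2% and 17%, near the background of 11.2% and 11.5%. Chemokine genes counted 8 risers and 3 fallers among 27 tested; Cxcl9 went from 2.4 to 21.7 FPKM in males and 6.73 to 29.7 in females and Cxcl17 0.378 to 9.68 FPKM in males and 2.25 to 10.7 in females. Apoptosis regulators counted 10 risers and 3 fallers among 50 tested, with the inflammatory caspases Casp12 at 0.639 to 6.78 FPKM in males and 0.585 to 6.01 in females and Casp4 at 0.479 to 3.03 FPKM in males and 0.768 to 3.13 in females, and Cidec, a lipid droplet protein, at 0.622 to 3.5 FPKM in males and 0.346 to 3.7 in females. Tumours were above precancerous liver in both cohorts for each riser named here. At FPKM 1 or more in both tissues 3 of 20 chemokine genes rose (15%) and 5 of 41 apoptosis genes (12.2%), near the 11.2% background. For immune and death genes leave-one-out counts were 5, 4, 17 and 14 higher for cytokines, 0, 0, 5 and 7 higher for chemokines and 1, 2, 8 and 10 higher for apoptosis.

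Genes of protein synthesis moved less. Aminoacyl-tRNA synthetases rose in 7 of 22 cases and 0 fell, with rises of at most 1.01 on the log2 scale: Cars went from 3.24 to 7.41 FPKM in males and 4.43 to 8.26 in females, Vars 2.59 to 6.11 FPKM in males and 3.99 to 7.13 in females and Lars 6.58 to 11.3 FPKM in males and 5.5 to 10.1 in females. 0 of them were 2-fold higher in both cohorts on the log2(FPKM + 1) scale. Ribosome biogenesis genes rose in 3 of 59 cases and translation factors in 6 of 62, shares under the 13.4% of all tested genes. DNA repair genes rose in 8 of 56 cases (14.3%) and 0 fell, with Polk, a translesion polymerase, at 2.12 to 6.4 FPKM in males and 2.68 to 6.55 in females. For synthetases and repair leave-one-out counts were 0, 0, 6 and 2 higher for synthetases and 0, 0, 4 and 3 higher for DNA repair.

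Secreted plasma proteins counted 21 fallers and 3 risers among 67 tested. A1bg was at 0.637 FPKM in male and 334 in female precancerous liver and at 0 and 0.625 in the tumours, so nearly all of its fall was in females. Ghr, the growth hormone receptor, part of which circulates as its binding protein, went from 48.4 to 11.9 FPKM in males and 40.4 to 7.28 in females. Serpina12, the adipokine vaspin, rose, 40.3 to 197 FPKM in males and 29.5 to 229 in females (log2 fold change 2.59, SE 0.25, edgeR adjusted p = 0.00715), as did Apom, a carrier of sphingosine phosphate, 217 to 559 FPKM in males and 211 to 466 in females. The plasma protein list depended on the tool: DESeq2 called 12 higher and 23 lower. For plasma proteins leave-one-out counts were 5, 4, 18 and 6 lower. ABC transporters counted 7 risers and 7 fallers among 39 tested. Of the 37 at FPKM 1 or more in both tissues 5 rose (13.5%, near the 11.2% background) and 7 fell (18.9%, against 11.5%). Beside Abcc4, its relative Abcc5 went from 0.802 to 6.69 FPKM in males and 1.19 to 6.13 in females. Abcc6 of hepatocytes went from 24.4 to 10.8 FPKM in males and 34.6 to 14.1 in females. For ABC transporters leave-one-out counts were 2, 3, 4 and 7 higher and 0, 1, 6 and 4 lower.

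Markers of cell types bear on these bulk values, in which fewer cells of a type and less RNA per cell cannot be told apart. Hepatocyte markers fell in 7 of 22 cases and 0 rose (12 and 4 by DESeq2), while their summed FPKM, mostly albumin, was 66810 and 88770 in male precancerous and tumour liver and 72260 and 88130 in females. Kupffer cell and macrophage markers counted 9 fallers and 1 riser among 14 tested, with sums of 431.6 and 217.9 in males and 633.3 and 355.7 in females. Vsig4, a complement receptor of Kupffer cells picked after its values were seen, went from 27.8 to 5.34 FPKM in males and 40.1 to 10.5 in females; Fcna and Cd163 above belong with these cells. For Kupffer cell markers leave-one-out counts were 5, 6, 8 and 7 lower. For hepatocyte and endothelial markers these counts were 0, 1, 6 and 5 lower and 1, 1, 6 and 4 lower, and for stellate cell and fibroblast markers 3, 3, 6 and 8 higher and 1, 2, 5 and 1 lower. The summed dendritic cell list, mostly MHC class II genes, was 53.85 and 226.6 in male and 125.3 and 282.3 in female precancerous and tumour liver, and 5 of 6 tested members rose. For dendritic cell markers leave-one-out counts were 0, 0, 3 and 4 higher.

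Cholangiocyte markers had sums of 15.48 and 153.7 in males and 22.93 and 150.5 in females, which in the tumours was mostly Spp1, and 3 of 6 tested rose. Among the defining markers of these bile duct cells, Krt7 was at most 0.208 FPKM in any of the 4 libraries. Epcam, another of them, did not pass (0.356 to 1.33 FPKM in males and 0.847 to 1.62 in females, edgeR adjusted p = 0.0807). T cell, B cell, neutrophil, adipocyte and mesothelial lists had 1 of 8, 1 of 5, 0 of 3, 2 of 3 and 2 of 4 tested members higher, and 1 mesothelial or smooth muscle member and 2 of 7 red cell members were lower. Lep, a defining adipocyte marker, was listed at 0 in all 4 libraries, and Cd3d, a defining T cell marker, was at most 0.309 FPKM. Yet the summed T and NK cell list was 6.88 and 16.7 in male and 8.63 and 15.7 in female precancerous and tumour liver. Adipocyte sums were 5.26 and 12.3 in males and 5.34 and 11.7 in females. B cell sums were 110.7 and 129.5 in males and 127.1 and 148.9 in females. Neutrophil sums were 9.67 and 6.47 in males and 7.52 and 11.8 in females. In the stellate cell list, Lrat, which stores retinol as esters and belongs to the retinoid list as well, went from 3.74 to 0.992 FPKM in males and 3.48 to 0.649 in females, while Col3a1, a fibrillar collagen, went from 1.19 to 6.11 FPKM in males and 2.54 to 11.8 in females.

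In a smaller set of genes the cohorts differed. With 1 library per tissue and cohort this difference could not be tested, and the genes were chosen for it. Female-biased enzymes of steroid and drug metabolism went opposite ways. Cyp3a16 was at 0 FPKM in male precancerous and 3.78 in male tumour liver, but went from 142 to 7.53 in females. Cyp2b13 went from 3.64 to 11.3 FPKM in males and 82.8 to 3.36 in females, and Sult2a1 0.142 to 1.33 FPKM in males and 55.5 to 4.47 in females. Sult2a2 was listed at 0 in male precancerous liver and at 1.29 FPKM in the male tumour, and went from 72.7 to 12.7 in females. These 4 genes belong to multigene families that share reads, so their values are uncertain. Cxcl14, a chemokine, was the 1 gene with the reverse pattern, 5.73 to 1.87 FPKM in males and 1.28 to 5.92 in females.

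Other genes differed in 1 cohort while the other moved by less than 0.25 on the log2(FPKM + 1) scale. In females, Glul, glutamine synthetase of the hepatocytes around the central vein, went from 306 to 44.5 FPKM, against 235 to 205 in males. Its pseudogene Glns-ps1 went from 9.21 to 8.04 FPKM in males and 7.01 to 1.02 in females, and shares sequence with it. Cldn2, a pore-forming claudin, went from 3.8 to 3.73 FPKM in males and 24.3 to 3.05 in females, and Aldh1a7 51.8 to 48.3 FPKM in males and 69.8 to 22.5 in females. The male tumour thus stayed near the precancerous level of these 4 genes and the female one did not. Higher in the female tumour only were Serpinb1a, a protease inhibitor (0.661 to 0.443 FPKM in males and 1.23 to 13.9 in females), Manf, a protein of the endoplasmic reticulum (18.1 to 17.6 FPKM in males and 4.68 to 19.7 in females), Tomm6 of the mitochondrial import pore (11.5 to 13.1 FPKM in males and 7.12 to 31.2 in females), Sec11c of the signal peptidase (7.98 to 9.25 FPKM in males and 3.58 to 9.51 in females) and Rrm2, a ribonucleotide reductase subunit (2.93 to 3.59 FPKM in males and 2.07 to 5.57 in females). Dsg1c, a desmoglein, went from 6.78 to 8.12 FPKM in males and 4.65 to 0.863 in females.

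In males alone, Got1, cytosolic aspartate aminotransferase, went from 80.3 to 17.2 FPKM, against 60.6 to 54.2 in females, and Etnppl, which breaks down phosphoethanolamine, went from 7.12 to 0.403 FPKM in males and 3.88 to 3.75 in females. Moxd1, a monooxygenase relative, went from 47.8 to 0.464 FPKM in males and was listed at 0 in both female libraries, so females cannot show a fall. The same holds for the pseudogene Gtpbp4-ps1, at 43.1 and 1.09 FPKM in male precancerous and tumour liver, and nearly so for Elovl3, a fatty acid elongase (6.02 to 0.182 FPKM in males and 0.178 to 0 in females). These 3 passed edgeR's test on male counts, as can happen when 1 cohort has few counts: 23 called genes had fewer than 10 counts in both female libraries and 19 in both male ones. Higher in the male tumour only were Vnn1, a pantetheinase (13.7 to 40.5 FPKM in males and 37.2 to 39.6 in females), Fads3 (2.44 to 8.95 FPKM in males and 1.46 to 1.68 in females), Gbp2, an interferon-induced GTPase (2.46 to 7.74 FPKM in males and 4.86 to 5.27 in females), Ptma (4.09 to 11.5 FPKM in males and 14 to 14.2 in females) and Cnih1 (14.4 to 34.4 FPKM in males and 23.8 to 26.4 in females). For Vnn1 and Ptma the male precancerous level stood apart among these 4 libraries, and the male tumour lay near both female levels.

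**Figure D5:**
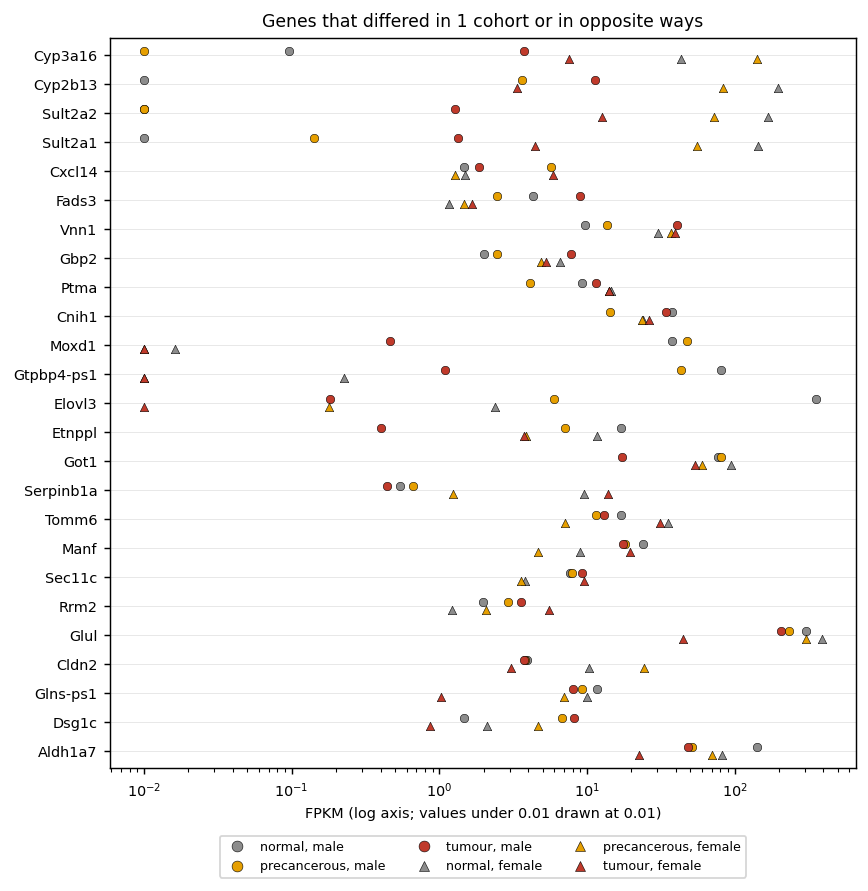
FPKM on a log axis of the genes that differed in 1 cohort or in opposite ways, with 1 symbol for each of the 6 libraries (circles males, triangles females; grey normal, orange precancerous, red tumour; values under 0.01 are drawn at 0.01). Glul and Cldn2 fall in the female tumour alone, and Cyp3a16 is high in female and near 0 in male precancerous liver.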

How the data were processed

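RNA of 6 mouse liver libraries was sequenced after a stranded mRNA library preparation, per the labels' protocols. The submitters' processing notes name TopHat2 2.0.9, Cuffdiff, GRCm38 and mm10. How strand was set when reads were counted is not stated there. The deposited table holds raw counts per gene and FPKM values that the authors made from them, both per the file headers, with library totals from 5996585 to 18434508.

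Tumour and precancerous counts were compared with edgeR 4.0.16 in R 4.3.3: TMM scaling, a quasi-likelihood fit on 4 libraries with tissue and cohort as terms, and Benjamini-Hochberg adjustment over 11435 genes. This fit has 1 residual degree of freedom, so the spread is borrowed largely from other genes. The SE given with a fold change is the size of the log2 fold change over the square root of the test's F statistic. Replicate 1 is the male and replicate 2 the female cohort, and this pairing comes from the labels. Fits without 1 of these 4 libraries kept the normal libraries to estimate the spread. Alternatives were another scaling, filter, pseudocount or tool (DESeq2 1.42.0, limma 3.58.1), and the fit without the block. On simulated counts with 200 changed genes 68.3% of 2-fold and 92.3% of 4-fold changes were found, with 6 false calls on average over 3 runs. The simulation changed far fewer genes than were called here and drew independent noise from the fitted spread. Its number of false calls therefore does not carry over to these data. Figures and counts of lists used Python 3.11.15.

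The genes named were the 15 per direction with the largest smaller-of-2 difference on the log2(FPKM + 1) scale among called genes at least 2-fold the same way in both cohorts, at an FPKM of at least 5 in 1 library, outside large multigene families and genes already described. Up to 4 called members per direction came from each list, and up to 5 genes per pattern where the cohorts differed. The genes, the 57 functional and 12 cell type lists and the rules were chosen with earlier results of these data known. A few named genes and 1 list are not reported here.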

Additional observations from a re-analysis of the deposited data

Results flagged for a closer look

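In 8 of the genes named for a difference between cohorts the male and the female value had opposite signs. Both were at least 2-fold in 5 of them, while Serpinb1a, Manf and Dsg1c differed by less than 0.25 in males. The difference between cohorts was not tested, since each cohort had 1 library per tissue. Values are tumour minus precancerous on the log2(FPKM + 1) scale. Cyp3a16 differed by 2.26 in males and -4.07 in females, Cyp2b13 by 1.41 and -4.27, Sult2a2 by 1.19 and -2.42, and Sult2a1 by 1.03 and -3.37. These 4 belong to multigene families whose members share reads. Cxcl14 differed by -1.23 in males and 1.61 in females, Serpinb1a by -0.20 and 2.73, Manf by -0.038 and 1.86, and Dsg1c by 0.23 and -1.60.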

How the results depend on the processing

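No called gene passed in the opposite direction under any alternative fit. Without the replicate block 0 genes passed in edgeR (2141 had an unadjusted p under 0.05, and the smallest adjusted p was 0.0703). DESeq2 called 1774, limma-trend 2400 on log2(FPKM + 1), and edgeR with an FPKM filter of 5 called 1626 of 5621 genes. Leaving out 1 library gave between 458 and 2933 calls. With all 6 libraries 2965 genes passed, of which 2650 were among the 2904. The share of calls that were higher was 53.0% with TMM, 49.9% with DESeq2's size factors and 56.7% with library totals. Within cohorts, a pseudocount of 0.1 gave 1184 genes at least 2-fold higher in males, 1092 in females and 867 lower in females, and an FPKM filter of 5 gave 395 and 366 higher in males and females. Without the female tumour, the log2 fold changes of Cyp3a16, Sult2a2 and Sult2a1 turned from below 0 to 5.57, 6.97 and 4.68, and over the libraries left out 1 at a time they ran from -4.26 to 7.95, from -2.56 to 6.97 and from -3.69 to 4.68. These genes were not called with all 4 libraries. The first 2 also turned above 0 without the female precancerous library (7.95 and 3.50), with DESeq2 (1.95 and 1.12) and with limma-trend on log2(FPKM + 0.1) (0.53 and 0.65). With 3 counts as the floor, a level below 0.163 to 0.435 CPM, depending on the library, could not be told from 0.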
